A study of Homo sapiens with 6 samples.

Results

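Histone lysine demethylases were examined in RNA sequencing libraries of HCT116 cells, a human colorectal cancer line. The members are 10 genes, KDM3A, KDM3B, JMJD1C, KDM1A, KDM2A, KDM4A, KDM4B, KDM4C, KDM5B and KDM6B, out of 40173 genes in the deposited table and 19987 genes with enough counts to be tested. They were chosen by gene symbol, and the group was built around KDM3A because of its fall in the CYGB libraries, so the values of KDM3A and of the other members in this comparison are given as a description and without a p-value. All 10 members were among the tested genes. The MOCK group (genotype wild type) holds 3 libraries of HCT116 cells infected with a control lentivirus, and the CYGB group (genotype CYGB overexpression) holds 3 libraries of cells infected with a lentivirus that carries the coding region of CYGB, or cytoglobin, fused to FLAG. Both groups are HCT116 cells that went through puromycin selection and were grown as stable lines, and the replicates are labelled biological replicates. Whether each group is a single infected population was not given in the sources used here, so the p-values measure the spread between these libraries, and the effect of CYGB cannot be told apart from a difference between the infected populations.

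Histone lysine demethylases remove methyl groups from lysines of the histone tails. Most of them carry a Jumonji C domain, which uses iron, oxygen and 2-oxoglutarate, while KDM1A works with the cofactor FAD and acts in complexes with RCOR proteins and histone deacetylases. KDM3A, KDM3B and JMJD1C form the KDM3 subfamily, in which KDM3A is known for removing mono- and dimethyl marks from histone H3 lysine 9, a mark of silent chromatin, and for being induced under low oxygen. KDM4A, KDM4B and KDM4C act on the trimethyl form of that lysine, KDM2A acts on lysine 36, KDM5B on lysine 4 and KDM6B on lysine 27 of histone H3.

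The table holds counts per transcript, so the sequences in which isoforms of the same gene differ bear on the transcript values below. In KDM3A, transcripts ENST00000312912 and ENST00000409064 have the same coding exons and start from different first exons. The last 15 bases of each first exon are shown in capitals, before the first 15 bases of the shared second exon, with the first exons ending at chr2:86441444 and chr2:86441488 (GRCh38, plus strand). ENST00000441719 and ENST00000542128 share the first of these junctions, so it marks no single transcript.

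ENST00000312912: GAGGCGGGAGGCGGGggaggagctcttcct
ENST00000409064: AGAGGGGAGAGAAAGggaggagctcttcct

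KDM3A transcript ENST00000441719, annotated as a target of nonsense-mediated decay, keeps 4 introns that ENST00000312912 removes, together 4084 bases. The end of the exon before the first of them is shown in lower case and the start of the kept intron in capitals, at chr2:86478015-86478044.

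ENST00000441719: agaattgccaacaggGTGAGAACCGATTTG

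In KDM1A and KDM4B the isoforms with the most counts differ by a coding stretch that is present in a single member of each pair, though other isoforms of KDM4B hold its stretch too. These stretches are shown because counts moved between the isoforms of each pair, though in KDM4B the counts did not divide by the stretch. The stretches are 18 bases of KDM1A at chr1:23073274-23073291 in ENST00000465864 and 102 bases of KDM4B at chr19:5119118-5119219 in ENST00000611640. Capitals are not used in them.

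KDM1A ENST00000465864: tcctttgttcttttgcag
KDM4B ENST00000611640: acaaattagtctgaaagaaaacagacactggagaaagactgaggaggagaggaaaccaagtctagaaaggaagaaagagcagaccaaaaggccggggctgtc

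None of the 73 stretches of 30 bases within the KDM4B exon occurs in a transcript of another gene.

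The 6 libraries held 58138393 to 66035266 counts. The CYGB gene, which checks the labels, had 10, 28 and 34 counts in MOCK, against 34935, 27681 and 32333 in CYGB. Mitochondrially encoded genes took 5.73 to 7.15% of the counts with a gene. The 6 epithelial markers EPCAM, CDH1, KRT8, KRT18, KRT19 and CLDN4 summed to 4111 to 4585 CPM (counts scaled to each library's effective size) in MOCK and 4182 to 4470 CPM in CYGB. Markers of leukocytes summed to 19.6 to 21.6 CPM in MOCK and 10.2 to 25.9 CPM in CYGB, those of fibroblasts to 44.6 to 50.2 CPM and 47.4 to 53.9 CPM, and those of endothelial cells to 1.09 to 1.38 CPM and 0.551 to 1.96 CPM. Single genes carried most of these low sums, CD68 at 20.1 and 18.5 CPM, COL1A1 at 46.4 and 49.7 CPM and VWF at 1.14 and 1.20 CPM, while PTPRC, CD3E, COL1A2, DCN, LUM, PECAM1 and CDH5 were at 0.122 CPM or less in either group. Among the epithelial markers CLDN4 was at 0.734 and 0.215 CPM. No marker of these lists was at 0 in all libraries.

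KDM3A (ENSG00000115548, chr2:86440647-86492716, plus strand) had 10712, 13744 and 13236 counts in MOCK, against 3132, 2801 and 3403 in CYGB. Every CYGB library was below every MOCK library, and within each group the libraries lay close together. The level was 248 ± 18.5 CPM in MOCK, against 60.6 ± 4.98 CPM in CYGB (SD, n = 3 in this and the following values), a log2 fold change of -2.03 with a standard error (SE) of 0.10, or 4.09-fold lower. The highest MOCK library was 1.15-fold above the lowest, and the corresponding ratio in CYGB was 1.18. In these bulk libraries, fewer cells that express KDM3A and less KDM3A RNA per cell cannot be told apart.

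KDM6B (ENSG00000132510, chr17:7839904-7854796), the demethylase of lysine 27, was the other member that was lower in every CYGB library. It had 970, 1363 and 1853 counts in MOCK, against 310, 614 and 223 in CYGB. Its level was 27.4 ± 7.86 CPM in MOCK, against 7.49 ± 4.09 CPM in CYGB, with a log2 fold change of -1.87 (SE 0.43). The spread was wider than that of KDM3A, with a highest over lowest ratio of 1.75 in MOCK and 2.85 in CYGB. The call of KDM6B at the threshold of the methods, explained in the next paragraph, was lost without MOCK replicate 2, without MOCK replicate 3, without CYGB replicate 1 and without CYGB replicate 3, at log2 fold changes of -1.92, -1.63, -1.75 and -1.59, and also with the replicate number as a block (-1.96).

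The threshold of the methods asks for an unadjusted p of 0.01 or less and a ratio of 2 or more, or of 0.5 or less. KDM3A and KDM6B were past it, 2 of 10 members, both lower in CYGB. Over all tested genes 0.565% were past it in either direction and 0.285% lower in CYGB, and since the members were gathered with this contrast known, nothing is read from the difference. The groups did not overlap for KDM3A and KDM6B, and for 11.0% of all genes tested.

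**Figure D1:**
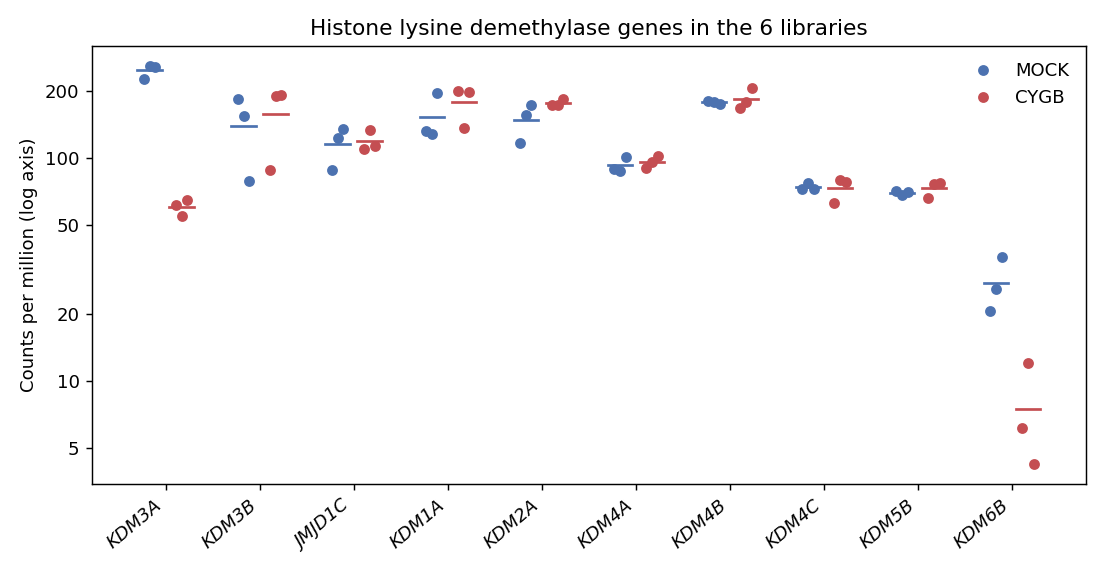
Level of each demethylase gene in CPM (log axis) in the 3 MOCK libraries (blue) and the 3 CYGB libraries (red), with a bar at each group's mean. KDM3A at 248 against 60.6 CPM and KDM6B at 27.4 against 7.49 CPM are the genes of the plot whose groups do not overlap.

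The other 8 members had log2 fold changes between -0.01 and 0.25, none past the threshold. They lie on 6 other chromosomes (GRCh38), with KDM3B at chr5:138352596-138437028, JMJD1C at chr10:63167221-63521850, KDM2A at chr11:67119269-67258087, KDM4B at chr19:4969113-5153595 and KDM4C at chr9:6720863-7175648. KDM1A (chr1:23019443-23083689), KDM4A (chr1:43650158-43705515) and KDM5B (chr1:202724491-202809470) share a chromosome but lie far apart. The closest relatives of KDM3A showed no such shift at the level of the gene. KDM3B, a demethylase of the same lysine, had 8732, 8176 and 4074 counts in MOCK, against 4457, 9698 and 10129 in CYGB, so that its low libraries were MOCK replicate 3 and CYGB replicate 1. Its log2 fold change was 0.17 with an SE of 0.41, the second widest of the members after KDM6B, so that a change of moderate size in either direction was not detectable. JMJD1C, the other gene of the subfamily, had 88.2 to 135 CPM in MOCK and 110 to 135 CPM in CYGB, with a log2 fold change of 0.05 (SE 0.18).

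KDM1A, the FAD-dependent enzyme that acts on lysine 4, had 6240, 6818 and 10139 counts in MOCK, against 10152, 6929 and 10378 in CYGB. A library of each group stood apart from its partners, MOCK replicate 3 above and CYGB replicate 2 below them, and the log2 fold change was 0.22 (SE 0.23). KDM2A ranged from 117 to 174 CPM in MOCK and from 173 to 185 CPM in CYGB, a log2 fold change of 0.25 (SE 0.15), and the groups overlapped.

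The KDM4 genes and KDM5B varied little between libraries. KDM4A ranged from 87.5 to 101 CPM in MOCK and from 90.5 to 103 CPM in CYGB, a log2 fold change of 0.06 (SE 0.10). KDM4B had 176 to 181 CPM in MOCK, a coefficient of variation of 1.56%, and 168 to 206 CPM in CYGB, with a log2 fold change of 0.05 (SE 0.09). KDM4C ranged from 72.6 to 77.8 CPM in MOCK and from 63.3 to 79.8 CPM in CYGB, with a log2 fold change of -0.01 (SE 0.12). KDM5B, a demethylase of the trimethyl form of lysine 4, had 68.4 to 71.3 CPM in MOCK and 66.2 to 77.5 CPM in CYGB, with a log2 fold change of 0.07 (SE 0.09). The median log2 fold change of the 10 members was 0.05, beside -0.01 over all genes tested.

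**Figure D2:**
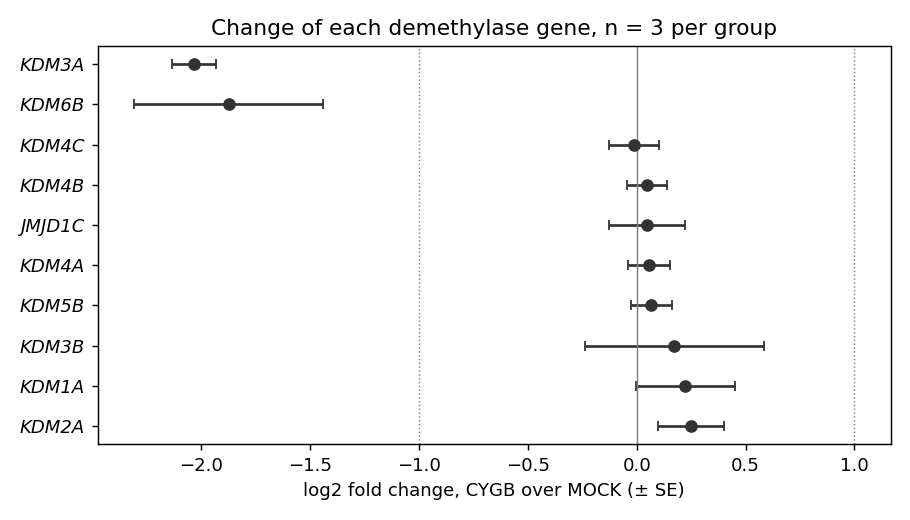
Log2 fold change (CYGB over MOCK) of each demethylase gene with its standard error, 3 libraries per group, with dotted lines at a ratio of 2 in either direction. KDM3A (-2.03) and KDM6B (-1.87) lie apart from the other 8 genes, which lie between -0.01 and 0.25.

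To compare genes with each other, the CPM of each transcript was divided by its annotated length in kilobases and summed per gene. On this scale KDM3A led the members in MOCK with 53.5 ± 3.56 CPM per kb, and KDM1A followed with 51.7 ± 12.9, a difference within the range of the libraries. KDM4B (35.2 ± 0.286) and KDM2A (34.6 ± 9.16) came next and overlapped with each other, and KDM2A also overlapped with KDM4A. KDM4A (23.0 ± 1.90), KDM3B (21.5 ± 7.98), KDM4C (20.2 ± 2.15) and JMJD1C (19.9 ± 2.80) followed, each overlapping with the next. KDM5B (6.95 ± 0.181) and KDM6B (4.53 ± 1.17) were lowest, and their ranges overlapped neither with each other nor with the genes above. In CYGB, KDM3A was at 13.2 ± 1.08 CPM per kb, below KDM4C (19.3 ± 0.630) and above KDM5B (9.82 ± 2.11), with no overlap with either. Its range of 12.1 to 14.2 overlapped with that of KDM3B (13.8 to 28.7), whose mean was higher. KDM1A led in CYGB with 59.7 ± 12.0. The level of KDM5B per kilobase was higher in every CYGB library although its counts per gene overlapped between the groups, and in CYGB replicates 1 and 3 most of its counts lay on a shorter isoform.

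As the deposited counts are divided among isoforms, the fall of KDM3A lay in a single transcript. ENST00000312912, a coding form of 4886 bases whose first junction is printed above, had 10060, 13147 and 12559 counts in MOCK, against 311, 435 and 300 in CYGB. It held 94.8 ± 0.873% of the KDM3A counts in MOCK and 11.4 ± 3.60% in CYGB. Its log2 fold change was -5.09 (SE 0.23), a far larger fall than that of the gene as a whole.

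The other 14 transcripts of KDM3A, summed, went the other way. They had 652, 597 and 677 counts in MOCK, against 2821, 2366 and 3103 in CYGB, or 12.8 ± 1.30 and 53.8 ± 6.50 CPM, 4.22-fold higher in CYGB. Most of this was ENST00000441719, the transcript with the 4 kept introns, with 247, 238 and 233 counts in MOCK, against 1387, 1577 and 1764 in CYGB. Its share of the gene was 1.93 ± 0.324% in MOCK and 50.8 ± 6.07% in CYGB, and its log2 fold change was 2.71 (SE 0.21).

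The other long coding transcripts of KDM3A had few counts in MOCK. ENST00000542128, with a coding length of 3981 bases, had 61, 76 and 80 counts in MOCK, against 317, 525 and 284 in CYGB, a log2 fold change of 2.38 (SE 0.37). ENST00000409064, which shares the coding exons of ENST00000312912, had 86, 58 and 71 counts in MOCK, against 880, 0 and 824 in CYGB. CYGB replicate 2 was thus below all MOCK libraries and the other CYGB libraries were above them, and this transcript was not past the threshold. Adding ENST00000312912 and ENST00000409064, which share a coding length of 3963 bases, gave 237 ± 19.1 CPM in MOCK and 17.8 ± 8.11 CPM in CYGB, 13.3-fold lower. This sum leaves out ENST00000542128, whose coding length is greater and which was higher in every CYGB library.

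The 5 transcripts of KDM3A annotated as retained intron held 196, 181 and 235 counts in MOCK, against 189, 213 and 148 in CYGB, or 4.05 ± 0.577 and 3.58 ± 0.700 CPM, and the groups overlapped. The most abundant of them, ENST00000491383, had 118, 101 and 146 counts in MOCK, against 119, 115 and 74 in CYGB. ENST00000470160 had 41, 34 and 42 against 40, 38 and 47 counts, ENST00000488971 had 16, 25 and 24 against 10, 39 and 7 counts, and ENST00000463013 had 15, 15 and 17 against 13, 14 and 15 counts. None of these 4 was past the threshold.

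The remaining transcripts of KDM3A were rare. ENST00000427678 had 19, 23 and 23 counts in MOCK and 15, 29 and 45 in CYGB, and ENST00000466058 had 26, 19 and 23 against 25, 16 and 26. Transcripts ENST00000483866, ENST00000452034, ENST00000498528, ENST00000485171 and ENST00000462197 had at most 15 counts in any library and were not tested. In all, 10 of the 15 transcripts of KDM3A were tested, 1 was past the threshold in the lower direction and 2 in the higher direction, beside 0.482% and 0.54% of all 66609 transcripts tested. These counts come from the contrast that chose KDM3A and describe it.

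**Figure D3:**
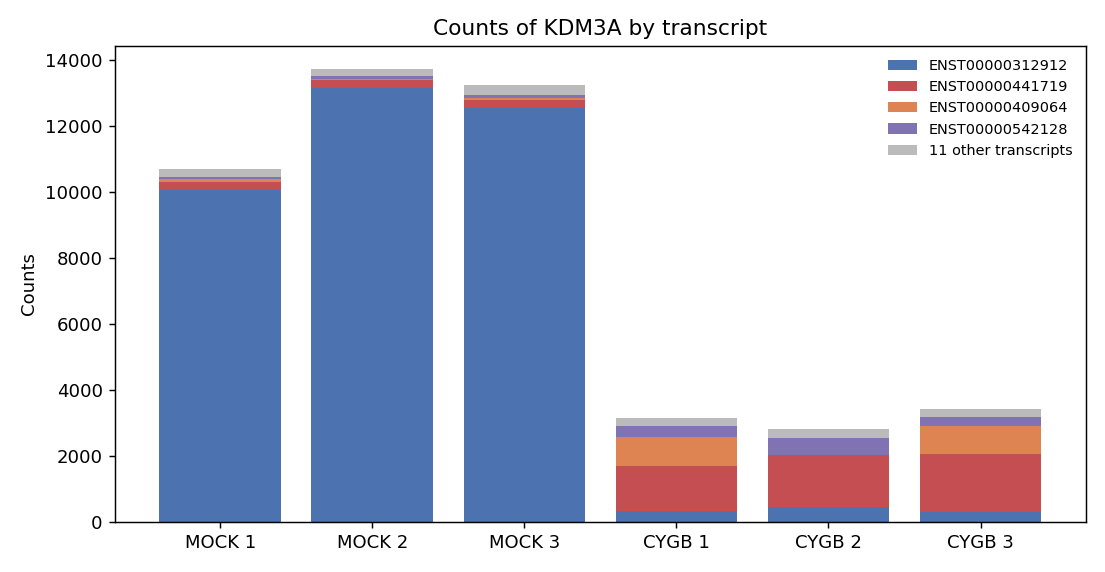
Counts of KDM3A in each of the 6 libraries, stacked by transcript, with the 4 transcripts of highest mean count in colour and the 11 others in grey. ENST00000312912 makes up most of each MOCK bar (10060 to 13147 counts) and little of each CYGB bar (300 to 435 counts), where ENST00000441719 is the largest part.

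The division of reads among the long coding isoforms of KDM3A rests on little sequence. Over windows of 150 bases, the read length of the study, ENST00000312912 has 0 windows of 4737 that are absent from the other KDM3A transcripts of the table. Each window stands for a single read, although the reads were paired-end. ENST00000409064 has 26 of 4472 and ENST00000542128 has 47 of 4162, while ENST00000441719 has 4666 of 8592, or 54.3%. How the authors divided reads among isoforms was not given in the sources used here, and the part of that step in the shift between KDM3A transcripts was not tested. The sum over the 15 transcripts does not depend on how reads are divided within the gene, but it does depend on reads being given to KDM3A at all. Among the 21225 transcripts of the table without a gene or position, 8.05% did not overlap between the groups in either direction. Of these, 7 were higher in every CYGB library with a mean rise of 0.5 to 2 times the fall of KDM3A of 187 CPM. Whether these 7 hold KDM3A reads was not tested.

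The isoforms of several other members, KDM5B, KDM1A, KDM4B and KDM2A, differed between libraries of the same group. KDM5B is the clearest case. ENST00000367265, of 10341 bases, had 3329, 3564 and 3605 counts in MOCK, against 173, 3864 and 254 in CYGB. ENST00000367264, which is 6520 bases long, had 0, 13 and 0 counts in MOCK, against 3154, 2 and 3800 in CYGB. CYGB replicate 2 thus resembled the MOCK libraries, and neither transcript was past the threshold, while the sum of the gene stayed within 66.2 to 77.5 CPM.

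KDM1A transcript ENST00000465864, with the 18 added bases, had 1855, 2987 and 8805 counts in MOCK, against 9308, 1753 and 9100 in CYGB. ENST00000356634, without them, had 4113, 3439 and 942 counts in MOCK, against 618, 4824 and 941 in CYGB. Here MOCK replicate 3 was like CYGB replicates 1 and 3, and CYGB replicate 2 like the other MOCK libraries. ENST00000356634 has 1 window of 2884 that the other KDM1A transcripts lack.

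KDM4B transcript ENST00000611640, which holds the 102-base exon, had 5690, 6699 and 1077 counts in MOCK, against 903, 696 and 1157 in CYGB. ENST00000159111, without it, had 2161, 897 and 5332 counts in MOCK, against 4802, 5815 and 6275 in CYGB. ENST00000536461, named after its values were seen because it also holds the exon, had 212, 796 and 1865 counts in MOCK and more in every CYGB library, at 2255, 2140 and 2476 (log2 fold change 1.26, SE 0.72, not past the threshold), so the counts did not divide by the exon. For the first pair, MOCK replicate 3 lay with the CYGB libraries, and the log2 fold changes of -2.30 (SE 0.68) and 0.99 (SE 0.63) were not past the threshold. KDM2A transcript ENST00000530342 had 0, 4290 and 4598 counts in MOCK, against 4742, 4435 and 5243 in CYGB, and ENST00000526258 had 0, 3184 and 3104 against 0, 3247 and 3261.

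**Figure D4:**
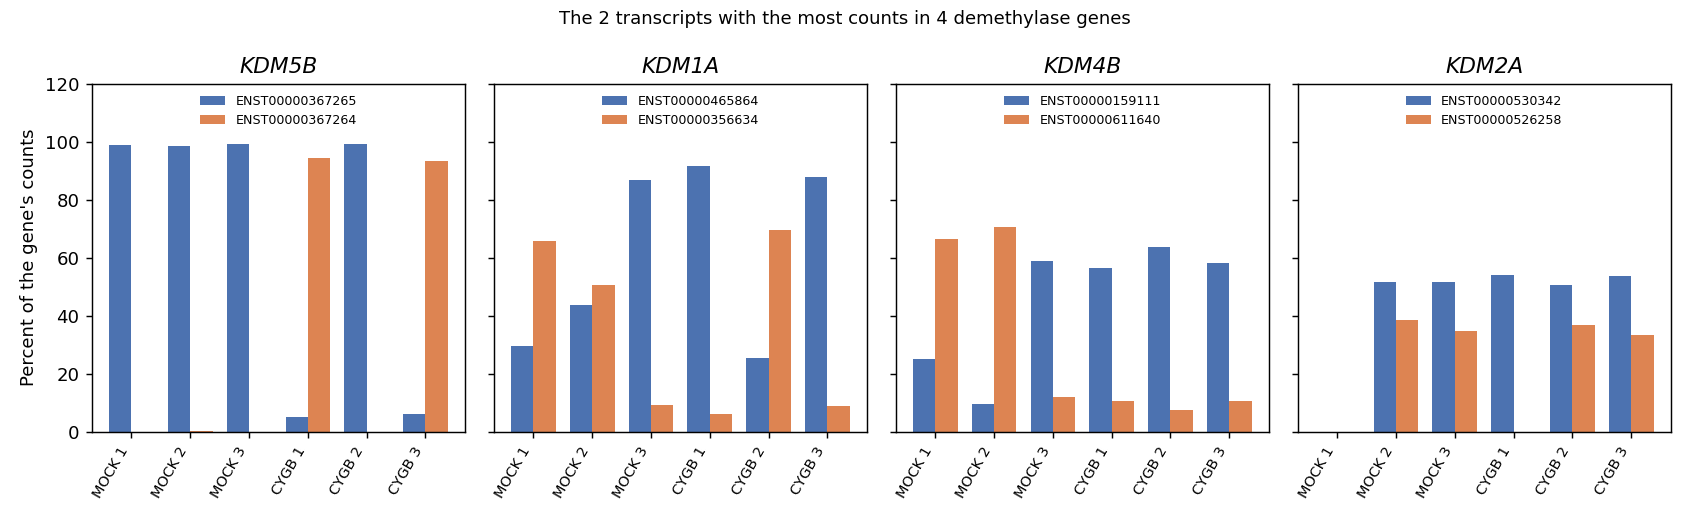
Percent of the gene's counts on the 2 transcripts of highest mean count, in each of the 6 libraries, for KDM5B, KDM1A, KDM4B and KDM2A. The leading transcript changes between libraries of the same group in KDM5B, KDM1A and KDM4B, and in KDM2A both transcripts are at 0 in MOCK replicate 1.

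KDM6B, which fell as a gene, had lower means in CYGB for both of its leading transcripts. ENST00000254846 had 390, 1053 and 1675 counts in MOCK, against 274, 377 and 208 in CYGB, with no overlap. ENST00000448097 had 578, 308 and 173 counts in MOCK, against 36, 234 and 15 in CYGB, and its groups overlapped. Neither was past the threshold on its own, with log2 fold changes of -1.85 (SE 0.57) and -1.90 (SE 1.13).

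KDM3B was mostly a single transcript, ENST00000314358, with 8690, 8158 and 4034 counts in MOCK, against 4277, 9537 and 9927 in CYGB. Its nonsense-mediated decay form ENST00000510866 had 0 counts in each MOCK library and 154, 140 and 188 counts in CYGB, at least 52.5-fold higher against a floor of 3 counts per MOCK library, and was past the threshold. ENST00000510866 held 2.25 ± 1.06% of the KDM3B counts in CYGB. It has 148 windows of 6175 that the other KDM3B transcripts lack, and the part of read division in its counts was not tested. KDM4A was led by ENST00000372396, with 4160 to 5067 counts in MOCK and 4509 to 5241 in CYGB, followed by ENST00000463151 with 38 to 143 and 36 to 209 counts. JMJD1C was led by ENST00000542921, with 3630 to 6385 counts in MOCK and 5069 to 6040 in CYGB, followed by ENST00000467356 with 208 to 278 and 184 to 259 counts. KDM4C was divided between ENST00000381309, with 1689 to 2750 and 1174 to 3047 counts, and ENST00000543771, with 339 to 1584 and 541 to 1385 counts.

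Of the 101 transcripts of the 10 members, 58 were tested, and 1 was past the threshold in the lower and 3 in the higher direction. Over all transcripts tested these shares were 0.482% and 0.54%. The lower transcript and 2 of the higher ones belong to KDM3A, which was chosen from this contrast. The groups did not overlap for 8 transcripts of the members, beside 10.4% of all transcripts tested. In 7 of the 10 genes the transcript with the most counts was not the same in all 6 libraries. In 6 of those 7, KDM3A being the other one, the change of leading transcript also occurred within a group.

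Of the 18 genes within 500 kb of KDM3A, 13 were tested and 0 were past the threshold with edgeR or with DESeq2, and 0 had an unadjusted p under 0.05 with either. Their log2 fold changes ranged from -0.46 to 1.27 with a median of 0.03. CHMP3, named because it lies nearest, was at 70.3 CPM in MOCK and 77.3 CPM in CYGB. No other gene of the table overlaps the spans of KDM3A, KDM3B, KDM4B or KDM6B. JMJD1C overlaps REEP3 on the opposite strand, with 740 to 3605 counts in MOCK and 1204 to 2803 in CYGB, and KDM4A overlaps KDM4A-AS1, with 113 to 121 and 83 to 124 counts. Whether the counting used strand was not given in the sources used here, so reads of such pairs could not be told apart.

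The promoter windows of RefSeq (GRCh38.p14, 250 bases before to 50 bases after a start site) were searched for the core of the hypoxia response element, the letters ACGTG or GCGTG on either strand, where the palindrome CACGTG counts on both strands. KDM3A has a single match, at chr2:86441335-86441359 with its flanks, which lies in both of its overlapping windows and is shown with the core in capitals.

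KDM3A: gggaggctgtGCGTGtcttgtgaga

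KDM6B has a match in 1 of its 2 windows and KDM3B none in its window, while KDM4C has 5 matches, KDM1A and KDM4B have 4 each, KDM2A has 3 in 1 of 2 windows, JMJD1C has 2 in 1 of 3, and KDM4A and KDM5B have 1 each. A match was found in 48.4% of the 35116 windows of all genes, so it does not set KDM3A apart.

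Other histone lysine demethylases, a list of 14 genes set by family, held 0 genes past the threshold with edgeR and 1 with DESeq2. Over all genes tested, 0.565% were past it with edgeR, and 263 of the same 19987 genes with DESeq2. A single gene of the list had an unadjusted p under 0.05 with either tool, beside 4.54% of all genes with edgeR. It was KDM2B, a relative of KDM2A, named after its values were seen, with 102, 66 and 316 counts in MOCK, against 456, 396 and 634 in CYGB, a log2 fold change of 1.60 (SE 0.59, adjusted p = 0.963 with edgeR). It was past the threshold with DESeq2, with the replicate number as a block and without MOCK replicate 3 (log2 fold changes of 1.60, 1.89 and 2.50). The most abundant of the 14 were KDM5C, a lysine 4 demethylase, at 104 ± 17.4 and 122 ± 17.8 CPM, and JMJD6, at 104 ± 0.668 and 107 ± 4.96 CPM. The list's median log2 fold change was 0.12, and 1 gene was lower and 2 were higher without overlap, beside 11.0% of all genes tested in either direction.

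Genes that write, read or accompany the marks, and genes of oxygen and 2-oxoglutarate metabolism, came to 67 genes in 6 lists. Past the threshold were 0 of them with edgeR and 1 with DESeq2, and 4 had an unadjusted p under 0.05 with each tool. Over all genes tested with edgeR these shares were 0.565% and 4.54%. DESeq2 had 263 of the same 19987 genes past the threshold, and its share with an unadjusted p under 0.05 is not given here. The 67 genes had a median log2 fold change of -0.02. Without CYGB replicate 2 there were 2 past it, VHL (2.00) and NSD3 (-1.89), and without MOCK replicate 2 there was 1, SETD2 (5.93), which had 74, 4624 and 67 counts in MOCK. The DESeq2 call was VHL (1.58). These genes were named after their values were seen.

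The 7 methyltransferases of H3 lysine 9 opposite KDM3A had a median log2 fold change of 0.03, and the most abundant, EHMT2, was at 119 ± 5.03 CPM in MOCK and 121 ± 16.6 CPM in CYGB, with PRDM2 second in abundance at 36.6 ± 2.86 and 27.9 ± 13.5 CPM. The 6 readers of that mark had a median of -0.11, and the heterochromatin proteins CBX1 and CBX5 were at 341 ± 12.2 and 322 ± 9.52 CPM in MOCK and at 331 ± 9.17 and 328 ± 23.6 CPM in CYGB. The 21 other methyltransferases had a median of 0.03, led by SETD7 (243 ± 7.21 and 246 ± 3.74 CPM) and NSD2 (205 ± 13.5 and 204 ± 14.1 CPM), and among them KMT5A, which methylates histone H4, had an unadjusted p under 0.05 with a log2 fold change of 0.98 (SE 0.37, adjusted p = 0.963 with edgeR). The 11 partners of KDM1A had a median of -0.01, with HDAC1 at 396 ± 8.59 and 400 ± 9.97 CPM and HMG20B at 154 ± 22.1 and 161 ± 27.8 CPM.

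The 12 genes of oxygen sensing and 2-oxoglutarate had a median log2 fold change of -0.02. EGLN1, a prolyl hydroxylase that uses the cofactors of the Jumonji enzymes, had 10246, 10799 and 8944 counts in MOCK, against 769, 8900 and 8170 in CYGB, so that CYGB replicate 1 stood apart, and HIF1AN was at 194 ± 5.76 and 185 ± 16.7 CPM. VHL, with an unadjusted p under 0.05, had 874, 651 and 798 counts in MOCK, against 2293, 707 and 4133 in CYGB, a log2 fold change of 1.57 (SE 0.59, adjusted p = 0.963 with edgeR). The 10 targets of hypoxia-inducible factors, a group to which KDM3A is known to belong, had a median of -0.16, with 3 genes lower and 1 higher without overlap (11.0% of all genes tested did not overlap in either direction). LDHA, a glycolytic enzyme, was at 1753 ± 61.7 and 1432 ± 52.7 CPM, a log2 fold change of -0.29 (SE 0.06, adjusted p = 0.963 with edgeR). SLC2A1, a glucose transporter, was at 1113 ± 18.9 and 1250 ± 60.1 CPM, in the opposite direction (log2 fold change 0.17, SE 0.06, adjusted p = 0.963 with edgeR), and PGK1 was at 2048 ± 41.2 and 1971 ± 242 CPM.

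**Figure D5:**
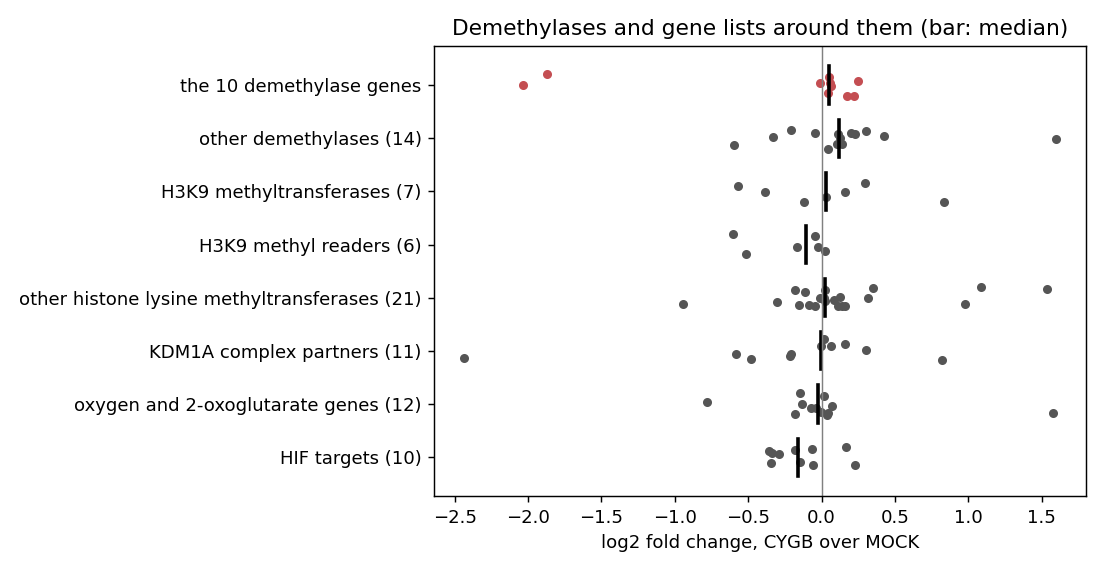
Log2 fold change (CYGB over MOCK) of the 10 demethylase genes (red) and of the genes of each list (grey, number of genes in brackets), with a black bar at each median. KDM3A and KDM6B stand at -2.03 and -1.87, while the medians of the lists lie between -0.16 and 0.12.

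The genes whose pattern over the 6 libraries was nearest to that of KDM3A were taken by the root mean square difference of log2(CPM + 0.5), centred on each gene's mean. LAMA5, a laminin chain, was nearest at 0.21, with 1893, 1753 and 2273 counts in MOCK and 565, 557 and 590 in CYGB. It was followed by BMS1P7 at 0.23 (42, 61 and 52 counts in MOCK, 0 in each CYGB library), NLRP2 at 0.28 (3590, 3707 and 3750 against 1248, 796 and 1562), EMC3-AS1 at 0.30 (349, 268 and 315 against 91, 56 and 49) and BMS1P4 at 0.34 (72, 45 and 43 against 0 in each). BMS1P7 and BMS1P4 are copies of the same gene, and reads can be split between such copies. They were at only 1.02 and 1.07 CPM in MOCK, with log2 fold changes of -8.70 and -8.77. Their nearness to KDM3A rests on the 0.5 CPM added before the logarithm.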

How the data were processed

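The submitters sequenced total RNA of 3 MOCK and 3 CYGB cultures with paired-end reads from NEBNext Ultra libraries. The authors deposited a single table of raw counts, 1 row per transcript, with nothing normalized. Per the submitters' processing notes HISAT2 and the build hg19 were used, but 99.6% of the transcripts found in GENCODE 29 have an identical position there, and GRCh38 coordinates are therefore given. Neither the tool that counted reads nor its way of dividing them among isoforms was given in the sources used here. The columns headed MK were taken as MOCK. Of 172678 transcripts, 21225 had no gene and held 18.6 to 19.5% of each library's counts; they stayed out of library sizes and tests. Counts were summed per gene.

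Genes and transcripts were kept by filterByExpr (minimum count 10), scaled by TMM, and fitted and tested by quasi-likelihood (glmQLFit, glmQLFTest) in edgeR 4.0.16 under R 4.3.3, CYGB against MOCK, with Benjamini-Hochberg adjustment; the SE is the log2 fold change divided by the square root of F. Levels are CPM of edgeR on TMM-adjusted library sizes. The fit was tested on simulated data. DESeq2 1.42.0 and other settings were alternatives. The members and lists were chosen with earlier results of these data known. Named were all members, every KDM3A transcript, the 2 transcripts of highest mean count of other members, list genes past a threshold or otherwise the 2 of highest mean CPM, and the 5 genes of nearest pattern. Sequences come from GENCODE 29 and RefSeq promoters, and 1 exon sequence is not reported here. Same-numbered libraries did not deviate together (correlations of 0.016, 0.0049 and 0.025). Replicates differed by a mean chi-square per gene of 77.3 or more, far above sampling noise, so each library counted as 1 replicate. The count floor covers counting error only, while the SDs and SEs hold the spread between libraries.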

Additional observations from a re-analysis of the deposited data

Results flagged for a closer look

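Transcripts without a gene were in no test above, and some of them moved against KDM3A. Its mean fell by 187 CPM. Of the 21225 transcripts without a gene, 7 were higher in every CYGB library than in any MOCK library and had a mean rise of 0.5 to 2 times that amount. In all, 8.05% of the transcripts without a gene did not overlap between the groups. MERGE.6880.4, chosen among the 7 after its values were seen, had 0, 114 and 0 counts in MOCK, against 8543, 7803 and 6258 in CYGB, or 0.719 ± 1.25 and 147 ± 25.6 CPM, a rise of 78.2% of the fall of KDM3A. The table gives these transcripts no position, and whether their reads come from KDM3A was not tested. By the same measure 173 such transcripts matched the fall of KDM6B of 20.0 CPM.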

How the results depend on the processing

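The fall of KDM3A kept its direction and its side of the threshold in all 13 alternatives, from -2.09 to -1.97 without 1 library. With ENST00000312912 alone in place of the sum it was -5.11. Same-numbered libraries share only a number. With the replicate block, the members past the threshold went from 2 to 1, genes with an adjusted p under 0.05 from 11 to 0, and other demethylases past the threshold from 0 to 1. Genes past the threshold numbered 113, and 263 with DESeq2, 62 where a mean of 50 counts was required, and 124 to 177 without 1 library. Genes with an adjusted p under 0.05 were 108 with DESeq2 and 6 to 14 without 1 library. Members past the threshold were 1 to 2 without 1 library, other demethylases 0 to 1 and listed chromatin genes 0 to 2, and with DESeq2 they were 2, 1 and 1. With the most abundant transcript in place of the sum, the log2 fold changes of KDM1A, KDM2A, KDM4B, KDM4C and KDM5B were 0.56, 0.72, 0.99, 0.16 and -1.30, moving by more than the spread of the gene sums between replicates, though for KDM1A, KDM2A and KDM4C by less than the SE of the single transcript (0.82, 1.85 and 0.44), and the call of KDM6B was lost (-1.85). No value of a called gene reversed. The cause of these moves was not tested. The members' median stayed between 0.01 and 0.10 without 1 library. With 3 libraries per group and a common coefficient of variation of 36.6% for genes and 78.9% for transcripts, moderate changes of KDM3B, KDM6B and of single transcripts could not be resolved.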
